A study of Homo sapiens with 6 samples.

Results

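The genes described here are 10 ligands, SMAD proteins and targets of transforming growth factor beta (TGF-beta) and bone morphogenetic protein (BMP) signalling: TGFB1, BMP4, SMAD3, SMAD6, SMAD7, ID1, ID2, ID3, ID4 and TGFBI. They were chosen by gene symbol, through array probe sets that carry exactly 1 symbol, and 10 of the 19775 genes read this way are members, with 22 of the 54613 probe sets. The cells were HT29, an established line from a human colorectal adenocarcinoma. Cocoa cultures (n = 3) were exposed for 24 h to 500 µg of a polyphenolic cocoa extract, for which no volume is given, and control cultures (n = 3) received saline by the protocol and are named untreated in the sample titles. RNA of each culture went onto 1 oligonucleotide array, and the comparison asks which transcripts differed after a day with the extract. All cultures grew in F12 medium with serum. The cells are of 1 cancer line, which is known to carry a mutation that truncates SMAD4, the SMAD protein that both branches of the pathway share.

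In this pathway TGF-beta and BMP ligands bind pairs of serine/threonine kinase receptors, which phosphorylate SMAD2 and SMAD3 in the TGF-beta branch and SMAD1, SMAD5 and SMAD9 in the BMP branch. The phosphorylated SMADs join SMAD4, enter the nucleus and switch genes on or off, among them SMAD6 and SMAD7, whose products inhibit the pathway in return, and the ID genes, which are classic BMP targets. In the colon the BMP branch is known to favour differentiation of epithelial cells toward the crypt surface, and TGF-beta is known to slow epithelial growth.

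SMAD proteins bind the short box GTCT or its reverse complement AGAC, and BMP-responsive SMADs also bind GC-rich elements such as GGCGCC. The promoter windows of 3 genes are shown because TGFBI was the member that changed, ID1 had the next largest difference, and SMAD6 holds the palindrome of both boxes. They run from 250 bases before to 50 bases after the gene start (RefSeq, GRCh38.p14), and capitals mark each GTCT, AGAC or GGCGCC on the strand of the gene:
TGFBI, chr5:136028738-136029037, plus strand: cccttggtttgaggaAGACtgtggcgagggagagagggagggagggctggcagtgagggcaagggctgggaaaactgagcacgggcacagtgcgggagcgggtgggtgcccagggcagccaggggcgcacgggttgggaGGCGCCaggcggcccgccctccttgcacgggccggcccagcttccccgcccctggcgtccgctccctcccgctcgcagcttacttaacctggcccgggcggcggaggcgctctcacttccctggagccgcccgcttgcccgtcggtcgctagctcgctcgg
ID1, chr20:31605039-31605338, plus strand: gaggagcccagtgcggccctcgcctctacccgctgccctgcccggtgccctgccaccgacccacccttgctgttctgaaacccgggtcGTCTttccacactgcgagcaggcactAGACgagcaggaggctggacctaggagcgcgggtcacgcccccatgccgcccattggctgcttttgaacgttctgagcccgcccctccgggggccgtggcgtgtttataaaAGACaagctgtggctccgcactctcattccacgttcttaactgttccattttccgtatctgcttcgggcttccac
SMAD6, chr15:66701986-66702285, plus strand: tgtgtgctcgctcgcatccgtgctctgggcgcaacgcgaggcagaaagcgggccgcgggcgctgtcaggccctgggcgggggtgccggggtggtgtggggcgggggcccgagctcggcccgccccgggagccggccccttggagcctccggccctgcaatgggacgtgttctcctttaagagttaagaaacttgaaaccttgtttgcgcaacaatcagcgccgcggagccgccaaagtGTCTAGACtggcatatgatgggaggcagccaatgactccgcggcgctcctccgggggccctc
The TGFBI window held 1 box, 235 bases before the start, and 1 GGCGCC element, 111 bases before it. The ID1 window held 3 boxes, at 162, 136 and 25 bases before the start. In SMAD6 the palindrome GTCTAGAC, which contains both orientations of the box, began 12 bases before the start. All 10 members had at least 1 window in the RefSeq table, 18 windows in all since BMP4, SMAD3 and SMAD7 have several starts. Searched on both strands, the box was in 84.0% of all 35116 windows of 300 bases and in 16 of the 18 member windows. These belonged to 9 members, all but TGFB1. GGCGCC was in 19.2% of all windows and in 3 of the 18 member windows, which belong to TGFBI, BMP4 and SMAD3. The palindrome was in 71 windows (0.202%), 1 of them that of SMAD6. These matches describe the letters of the windows and are not evidence of binding.

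With the cocoa extract 1 of the 10 genes rose, TGFBI, none fell, and 9 did not pass the threshold (limma, Benjamini-Hochberg adjusted p below 0.05 over all 19775 genes). By the same rule 13.5% of all genes changed (7.36% higher and 6.12% lower with cocoa), so the share among the members lay near that of the whole table. At an unadjusted limma p below 0.05 there were 2 members, TGFBI and SMAD7, against 27.1% of all genes. The median log2 difference of the 10 genes was −0.006, against −0.012 over all genes, and their median absolute difference was 0.11, against 0.099. In TGFBI every cocoa array lay above every control array, which held for 15.4% of all genes, and in ID3 every cocoa array lay below them, which held for 17.0%. Together 32.5% of genes had groups apart in this way. Without control array 2 the number of changed genes was 1315 and without control array 1 it was 1623, in place of 2666. Values are centred log2 expression: the 6 values of a probe set have their median at 0, so a value shows how an array lies relative to the others and not how much transcript there was. For the same reason the labelled cell type could not be checked against levels of epithelial markers. The labels do not say whether cultures of 1 group came from separate days or passages, so p-values measure the spread between these cultures, which may be technical. The number of arrays limits the precision.

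**Figure D1:**
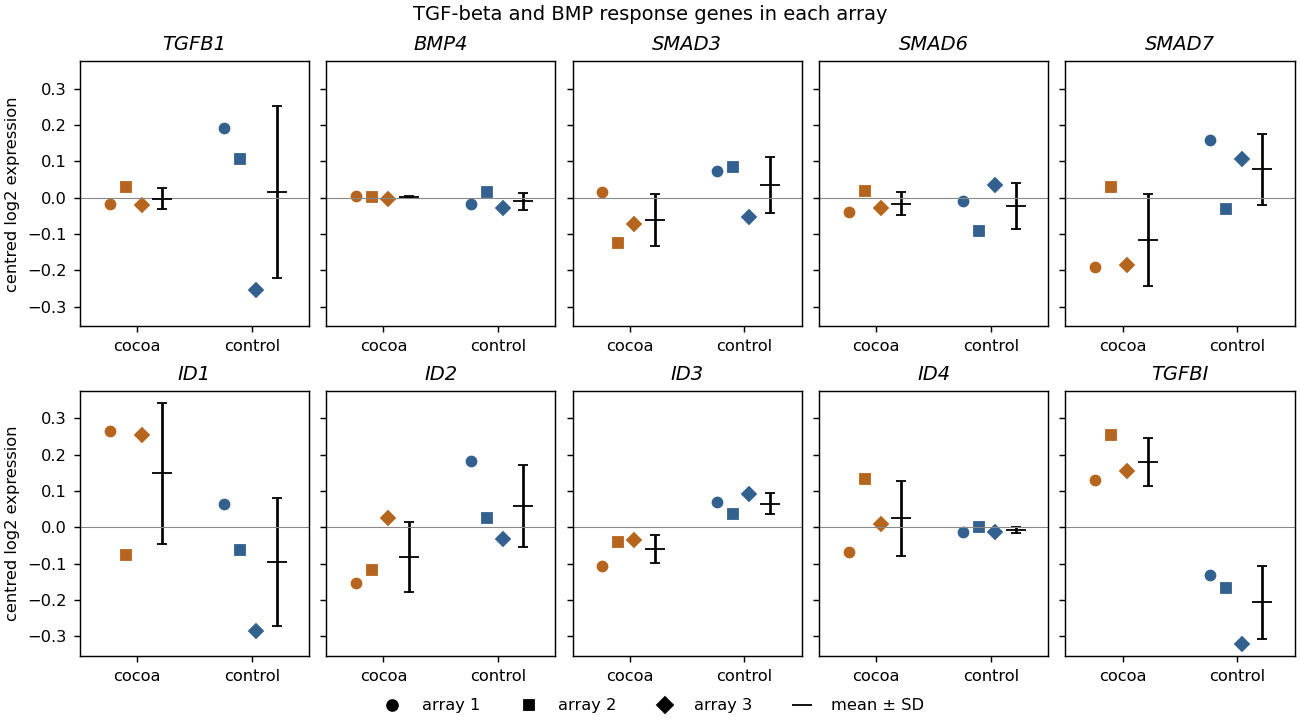
Centred log2 expression of the 10 genes in each array (vertical axis), with cocoa arrays on the left and control arrays on the right of each panel. Symbols mark array numbers and bars the mean ± SD of 3 arrays. In TGFBI the cocoa arrays lie between 0.13 and 0.26, above all control arrays, while in 8 of the other 9 genes the groups overlap.

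TGFBI encodes an extracellular matrix protein that binds integrins and was named for its induction by TGF-beta. It lies on chromosome 5 (136028988 to 136063818, GRCh38.p14) and was read by 1 probe set. Its values were 0.13, 0.26 and 0.15 in cocoa arrays 1 to 3, against −0.13, −0.17 and −0.32 in control arrays 1 to 3. All cocoa arrays were above all control arrays. TGFBI rose 1.31-fold (log2 difference 0.39, SE 0.075, 95% interval 0.22 to 0.55, limma adjusted p = 0.00947), a difference larger in size than that of 93.1% of genes. An exact 2-sided permutation test over the arrays gave p = 0.1, the smallest that 3 against 3 arrays can give.

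The call of TGFBI was kept when any 1 of the 6 arrays was left out (difference 0.33 to 0.42, limma adjusted p 0.0153 to 0.0361). It was lost with the 18S ribosomal RNA control signal of each array as a covariate (0.34, limma adjusted p = 0.0739). It was also lost when the 5′ minus 3′ control signal of actin and GAPDH took that place (0.34, limma adjusted p = 0.0554). The 18S signal was −0.513, 3.31 and 1.40 in cocoa arrays 1 to 3, against −1.12, 0.509 and −0.53 in control arrays 1 to 3 on the centred log2 scale. The 5′ minus 3′ signal was 0.032, −0.259 and −0.052 in cocoa arrays 1 to 3, against 0.028, 0.033 and 0.009 in control arrays 1 to 3. The part of either signal in the difference of TGFBI was not tested beyond these fits. Adjusted over the 54613 probe sets in place of genes, where 7.98% changed, the limma adjusted p of TGFBI was 0.0281. On that level the call was kept without cocoa array 1 and lost without any of the other 5 arrays (0.04 to 0.0951).

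**Figure D2:**
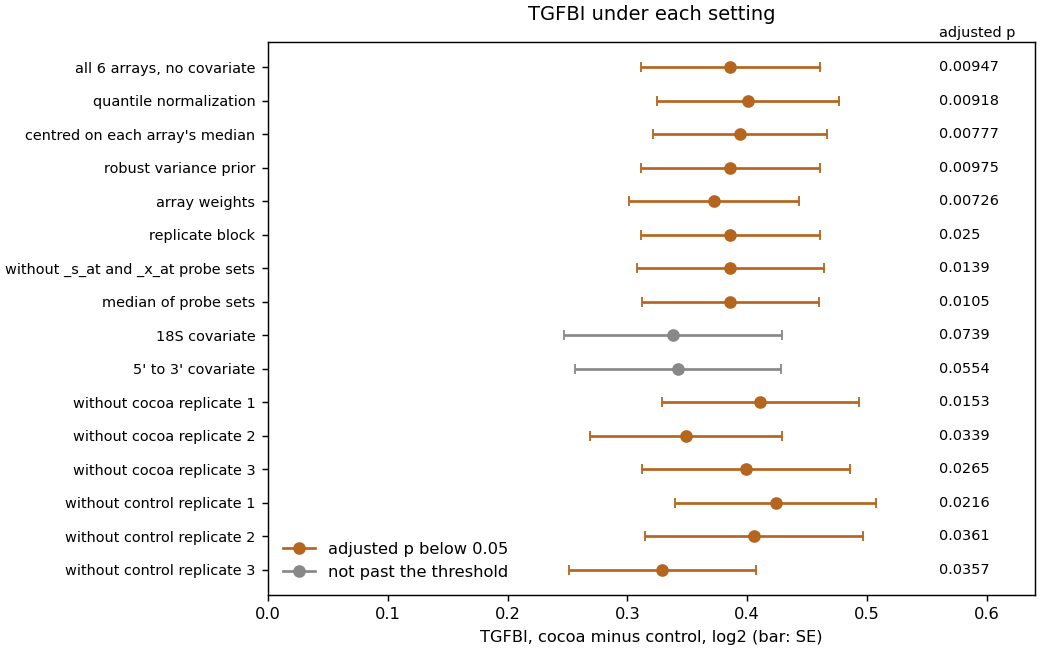
Log2 difference of TGFBI, cocoa minus control (horizontal axis, bars are SE), in the fit of all genes under each setting (rows), with the adjusted p at the right. All differences lie between 0.33 and 0.42, and those of the 2 covariate fits do not pass the threshold.

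The 3 genes with values nearest to those of TGFBI over the 6 arrays, by Euclidean distance, were MINPP1 (distance 0.072), DBP (0.073) and LGALS3BP (0.084). MINPP1, an inositol polyphosphate phosphatase, had a log2 difference of 0.43 (SE 0.073), and LGALS3BP, a secreted glycoprotein that binds galectins, one of 0.40 (SE 0.068). DBP, a transcription factor of circadian output, differed by 0.35 (SE 0.074), read by 2 probe sets. Without probe sets whose suffix marks matches to several transcripts, the value of DBP was −0.07, and MINPP1, read by 1 probe set, had no value. The likeness is that of 6 centred values and gives no measure of shared control.

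ID proteins are helix-loop-helix proteins without a DNA-binding region, which hold back differentiation by sequestering basic helix-loop-helix (bHLH) transcription factors. None of the 4 ID genes passed the threshold. ID1 had 0.27, −0.076 and 0.26 in cocoa arrays 1 to 3, against 0.063, −0.063 and −0.28 in control arrays 1 to 3. Cocoa arrays 1 and 3 lay above all controls and cocoa array 2 among them. Its log2 difference of 0.24 (SE 0.12, 95% interval −0.02 to 0.50, limma adjusted p = 0.216) was the second largest among the members in size. Without cocoa array 2 it was 0.36 (limma adjusted p = 0.0735). Without control array 3 it was 0.15 (limma adjusted p = 0.503), the smallest of the 6 fits without 1 array.

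ID2 and ID3 had differences of the opposite sign to that of ID1. ID2 had −0.15, −0.12 and 0.026 in cocoa arrays 1 to 3, against 0.18, 0.025 and −0.033 in control arrays 1 to 3, and the groups overlapped (log2 difference −0.14, 95% interval −0.32 to 0.04, limma adjusted p = 0.318). Its 2 probe sets read −0.19 and −0.09. A further probe set, annotated to ID2 and its copy ID2B together and so outside the rule, read 0.06 (95% interval −0.17 to 0.29). ID3 had −0.11, −0.039 and −0.036 in cocoa arrays 1 to 3, against 0.069, 0.036 and 0.091 in control arrays 1 to 3. All its cocoa arrays were below all controls, by a small margin, and the difference of −0.13 did not pass (SE 0.061, 95% interval −0.26 to 0.01, limma adjusted p = 0.231).

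ID4 had a log2 difference of 0.03 (95% interval −0.13 to 0.19, limma adjusted p = 0.836) as the mean of 5 probe sets. Its cocoa arrays 1 to 3 had −0.069, 0.13 and 0.0093, around control arrays at −0.012, 0.0021 and −0.011. The cocoa arrays spread wider (SD 0.102) than the controls (SD 0.008). Single probe sets of ID4 ran from −0.04 to 0.08. Whether ID1 and the other ID genes responded differently was not tested.

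SMAD7 and SMAD6 are the inhibitory SMADs, made in response to the pathway and blocking its receptors. SMAD7 had −0.19, 0.03 and −0.19 in cocoa arrays 1 to 3, against 0.16, −0.03 and 0.11 in control arrays 1 to 3. Cocoa arrays 1 and 3 were below all controls and cocoa array 2 was among them. The log2 difference was −0.19 (SE 0.084, 95% interval −0.39 to −0.004). Its unadjusted limma p was 0.046 and the limma adjusted p 0.174. Without cocoa array 2 the difference was −0.27 (limma adjusted p = 0.0769). Without control array 1 it was −0.15 (limma adjusted p = 0.408), the smallest in size of the 6 fits without 1 array.

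SMAD6 as the mean of 4 probe sets had −0.039, 0.019 and −0.029 in cocoa arrays 1 to 3, against −0.0094, −0.093 and 0.034 in control arrays 1 to 3 (log2 difference 0.006, 95% interval −0.14 to 0.15, limma adjusted p = 0.971). The 4 probe sets differed in sign. Probe set 207069_s_at had 0.12, 0.2 and 0.091 in cocoa arrays 1 to 3, against −0.12, −0.091 and −0.093 in control arrays 1 to 3. Its groups did not overlap, and its difference of 0.24 (SE 0.073) had a limma adjusted p of 0.0924 over all probe sets. The other 3 probe sets had differences of −0.13, −0.07 and −0.006, each with overlapping groups. Which transcripts of SMAD6 each probe set reads was not examined, and whether the probe sets differ was not tested.

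SMAD3 is the receptor-regulated SMAD of the TGF-beta branch. Its 4 probe sets gave a mean of 0.016, −0.13 and −0.071 in cocoa arrays 1 to 3, against 0.074, 0.084 and −0.054 in control arrays 1 to 3, with overlap (log2 difference −0.09, SE 0.071, 95% interval −0.25 to 0.07, limma adjusted p = 0.456). Probe set 205396_at had −0.7 in cocoa array 2, the lowest value of any probe set of the members, beside 0.094 and −0.14 in cocoa arrays 1 and 3. Its difference of −0.33 had an SE of 0.19. The other 3 probe sets of SMAD3 had differences between −0.07 and 0.08.

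The ligands were the members with the smallest differences along with SMAD6 and ID4. TGFB1, the main TGF-beta ligand of epithelia and immune cells, had −0.017, 0.03 and −0.02 in cocoa arrays 1 to 3, against 0.19, 0.11 and −0.25 in control arrays 1 to 3. The controls lay on both sides of the cocoa arrays (log2 difference −0.02, 95% interval −0.26 to 0.23, limma adjusted p = 0.945), and the 2 probe sets read −0.12 and 0.08. BMP4, a BMP ligand of the gut wall, had 0.005, 0.0024 and −0.0024 in cocoa arrays 1 to 3, against −0.018, 0.016 and −0.028 in control arrays 1 to 3, the narrowest range over the 6 arrays of the 10 genes. Its difference of 0.01 had a 95% interval of −0.12 to 0.15 (limma adjusted p = 0.933), and its level over background is unknown. Over the 9 members that did not pass, the limits of the 95% intervals ran from −0.39 for SMAD7 to 0.50 for ID1. SMAD7 was the member among these 9 whose interval did not hold 0.

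Of the 22 probe sets 10 had a positive and 12 a negative difference, and 1 was called, that of TGFBI. Of all probe sets 7.98% were called, 4.68% higher and 3.3% lower with cocoa. In 2 probe sets, those of TGFBI and 207069_s_at of SMAD6, all cocoa arrays lay above the controls, and in 1, that of ID3, below them. Over all probe sets the cocoa arrays lay above the controls in 12.9% and below them in 14.7%, 27.6% together. Of the 5 members with several probe sets, 1, ID2, had probe sets that all shared a sign.

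**Figure D3:**
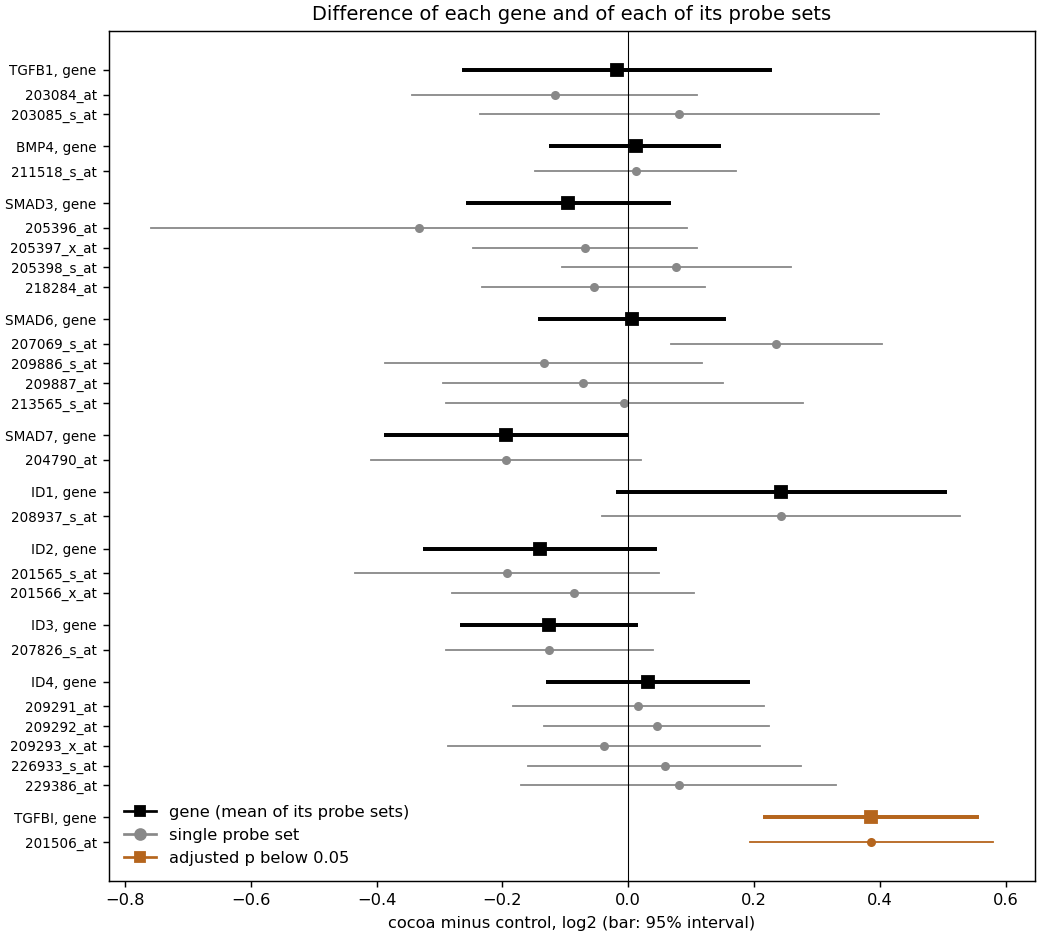
Log2 difference, cocoa minus control, with its 95% interval (horizontal axis) for each gene (squares) and each of its probe sets (circles); intervals of a gene with 1 probe set differ slightly because the fits of genes and of probe sets estimate the spread separately. The intervals of TGFBI, SMAD7 as a gene and probe set 207069_s_at of SMAD6 leave out 0, and those of TGFBI pass the threshold.

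The rest of the pathway was read through 7 lists with 96 genes, 91 of them measured. Of these 91, 2 rose, 6 fell and 83 did not pass. This is 8.79%, against 13.5% of all genes. The median log2 difference of the 91 was −0.005. When 1 array was left out, the number of changed genes among the 91 ran from 2 (without control array 2) to 10 (without cocoa array 1); it was 3 without control array 1 and 4 without cocoa array 3 or control array 3. Of 20 ligands and proteins of ligand release, TGFB2 fell and 19 did not pass, so 5.0% changed. TGFB2, a second TGF-beta ligand, had −0.045, −0.15 and −0.2 in cocoa arrays 1 to 3, against 0.19, 0.2 and 0.13 in control arrays 1 to 3. Its log2 difference was −0.31 (SE 0.068, limma adjusted p = 0.0169), all 5 of its probe sets had a negative sign, and none was called alone. The call held in 3 of the 6 fits without 1 array (limma adjusted p 0.0129 to 0.0789) and was lost without cocoa array 3, control array 1 or control array 2. It was also lost with the 18S (0.106) and actin and GAPDH covariates (0.0807), and without the probe sets whose suffix marks several transcripts (−0.20, limma adjusted p = 0.0879).

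Of 12 receptors 1 rose, 1 fell and 10 did not pass (median 0.03). The changed receptors were 16.7% of the list, near the 13.5% of all genes. TGFBR2, the type II receptor that binds TGF-beta first, had −0.055, −0.37 and −0.24 in cocoa arrays 1 to 3, against 0.22, 0.28 and 0.042 in control arrays 1 to 3. All its cocoa arrays lay below all controls, as in 17.0% of all genes, and TGFBR2 fell by 0.40 on the log2 scale (SE 0.096, limma adjusted p = 0.0237). The call held in 2 of the 6 fits without 1 array (limma adjusted p 0.0114 to 0.102), those without cocoa array 1 or control array 3. It was lost with either covariate (0.159 with 18S and 0.117 for the actin and GAPDH signal) and without the probe sets of that suffix (−0.29, limma adjusted p = 0.0819). TGFBR1, its partner, had a difference of −0.10 (limma adjusted p = 0.491).

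BMPR2, the type II receptor of BMPs, had 0.38, 0.1 and 0.13 in cocoa arrays 1 to 3, against −0.19, −0.14 and −0.17 in control arrays 1 to 3. All cocoa arrays were above all controls, as in 15.4% of all genes, and BMPR2 rose by 0.37 on the log2 scale (SE 0.083, limma adjusted p = 0.0188). Of its 6 probe sets 2 were called. Probe set 225144_at of BMPR2 had 0.35, 0.53 and 0.43 in cocoa arrays 1 to 3, against −0.72, −0.6 and −0.35 in control arrays 1 to 3 (log2 difference 0.99, limma adjusted p over probe sets 0.00173). Probe set 231873_at had a difference of 0.87 (0.0177). The other 4 ran from −0.15 to 0.26 and did not pass. With the median of the probe sets in place of their mean, the difference of BMPR2 was 0.23 (limma adjusted p = 0.159). It was past the threshold with either covariate (0.0227 with 18S and 0.0191 for the actin and GAPDH signal) and in 3 of the 6 fits without 1 array, those without a cocoa array.

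The 5 signal-carrying SMADs, SMAD1, SMAD2, SMAD4, SMAD5 and SMAD9, did not pass, with differences between −0.11 for SMAD2 and 0.13 for SMAD9. At an unadjusted limma p below 0.05 their count was also 0 of 5, against 27.1% of all genes. Of 18 inhibitors and modulators 1 fell and 17 did not pass, so 5.56% changed, against 13.5% of all genes. TGIF2, a homeobox co-repressor of SMAD2 and SMAD3, fell by 0.26 (SE 0.073, limma adjusted p = 0.0437). Its values were −0.052, −0.18 and −0.26 in cocoa arrays 1 to 3, against 0.14, 0.085 and 0.064 in control arrays 1 to 3. That call held in 1 of the 6 fits without 1 array, that without cocoa array 1 (limma adjusted p 0.0203 to 0.137), and was lost with the 18S (0.222) and actin and GAPDH covariates (0.163), with quantile normalisation (0.0585) and with centring of each array (0.0509). Besides SMAD6 and SMAD7, described above, the feedback inhibitors SKIL and PMEPA1 had differences of 0.03 and 0.007, and that of BAMBI had a 95% interval of −0.16 to 0.16. TGIF1, of the same list, had a difference of −0.27 (SE 0.094, limma adjusted p = 0.0957), with overlap. It passed with array weights and without cocoa array 1.

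Of 19 further targets of TGF-beta and BMP 1 rose, 2 fell and 16 did not pass (median −0.014). The changed targets were 15.8% of the list, near the 13.5% of all genes. CCN2, a matricellular protein induced by TGF-beta and also by YAP, had −0.68, −0.12 and −0.92 in cocoa arrays 1 to 3, against 0.12, 0.52 and 0.38 in control arrays 1 to 3. Cocoa array 2 lay nearest to the controls, and all cocoa arrays lay below them, as in 17.0% of all genes. CCN2 fell by 0.91 on the log2 scale (ratio of cocoa to control 0.531, SE 0.18, limma adjusted p = 0.0113), the largest difference in size of the 91 genes and the 10 members. It was past the threshold with both covariates and in 5 of the 6 fits without 1 array, and had a limma adjusted p of 0.0509 without control array 2 (0.002 to 0.0509 over these fits). Its relative CCN1, added after its values were seen, had −0.4, 0.025 and −0.43 in cocoa arrays 1 to 3, against 0.019, 0.21 and 0.097 in control arrays 1 to 3 (log2 difference −0.37, limma adjusted p = 0.0687). Without cocoa array 2 the difference of CCN1 was −0.52 (limma adjusted p = 0.00764), and CCN1 also passed with the 18S (0.0174) and actin and GAPDH covariates (0.0153). That was the 1 of the 6 fits without 1 array in which CCN1 passed (limma adjusted p 0.00764 to 0.218). Without the probe sets whose suffix marks several transcripts CCN1 did not pass (−0.33, limma adjusted p = 0.151).

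DUSP4, a phosphatase that dampens MAP kinases, fell by 0.34 (SE 0.063, limma adjusted p = 0.00832), with −0.19, −0.11 and −0.22 in cocoa arrays 1 to 3, against 0.18, 0.14 and 0.18 in control arrays 1 to 3. Its call held whichever array was left out and with both covariates, and was lost without the probe sets whose suffix marks several transcripts (−0.25, limma adjusted p = 0.065). CDKN1A, the cell cycle inhibitor p21, which TGF-beta and p53 both induce, had 0.094, 0.36 and 0.41 in cocoa arrays 1 to 3, against −0.13, −0.094 and −0.27 in control arrays 1 to 3. It rose by 0.46 (SE 0.095, limma adjusted p = 0.013). The limma adjusted p of CDKN1A was 0.0504 without control array 3, 0.0985 when 18S was a covariate and 0.0791 when the actin and GAPDH signal was (0.00422 to 0.0504 when 1 array was left out). CDKN2B, JUNB and the other 14 targets did not pass. JUNB had a difference of 0.40 (SE 0.12, limma adjusted p = 0.0626). Its cocoa arrays all lay above the controls, which held for 15.4% of all genes, and it passed with the replicate number as a block. CDKN2B had a difference of −0.27 (limma adjusted p = 0.108), with overlap, and passed without cocoa array 1.

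Of 9 genes of the epithelial to mesenchymal transition, a programme that TGF-beta is known to drive through ZEB and SNAI factors, 0 passed in limma and 0 had an unadjusted limma p below 0.05, against 13.5% and 27.1% of all genes. Their median was 0.004. E-cadherin (CDH1) had a difference of 0.02 (95% interval −0.225 to 0.272), vimentin (VIM) one of 0.10 (−0.05 to 0.26) and ZEB1 one of 0.004 (−0.14 to 0.14). SNAI1, named after its values were seen, had a difference of −0.22 (limma adjusted p = 0.316) and passed without cocoa array 2 and with the actin and GAPDH covariate. Of 8 bHLH factors, partners or targets of ID proteins, TCF3 fell and 7 did not pass, so 12.5% changed, near the 13.5% of all genes. TCF3, whose products E12 and E47 are bound by ID proteins, fell by 0.24 (SE 0.064, limma adjusted p = 0.0381) over 14 probe sets. The call was lost in each of the 6 fits without 1 array (limma adjusted p 0.0534 to 0.151) and with both covariates (0.106 and 0.0899). Without the probe sets whose suffix marks several transcripts the difference of TCF3 was −0.15 (limma adjusted p = 0.208). Probe sets 209152_s_at, 210776_x_at, 213730_x_at and 213811_x_at of TCF3, all of that suffix, were called alone (limma adjusted p over probe sets 0.00568 to 0.0456). Single probe sets of TCF3 ran from −0.53 (210776_x_at) to 0.06 (213809_x_at).

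**Figure D4:**
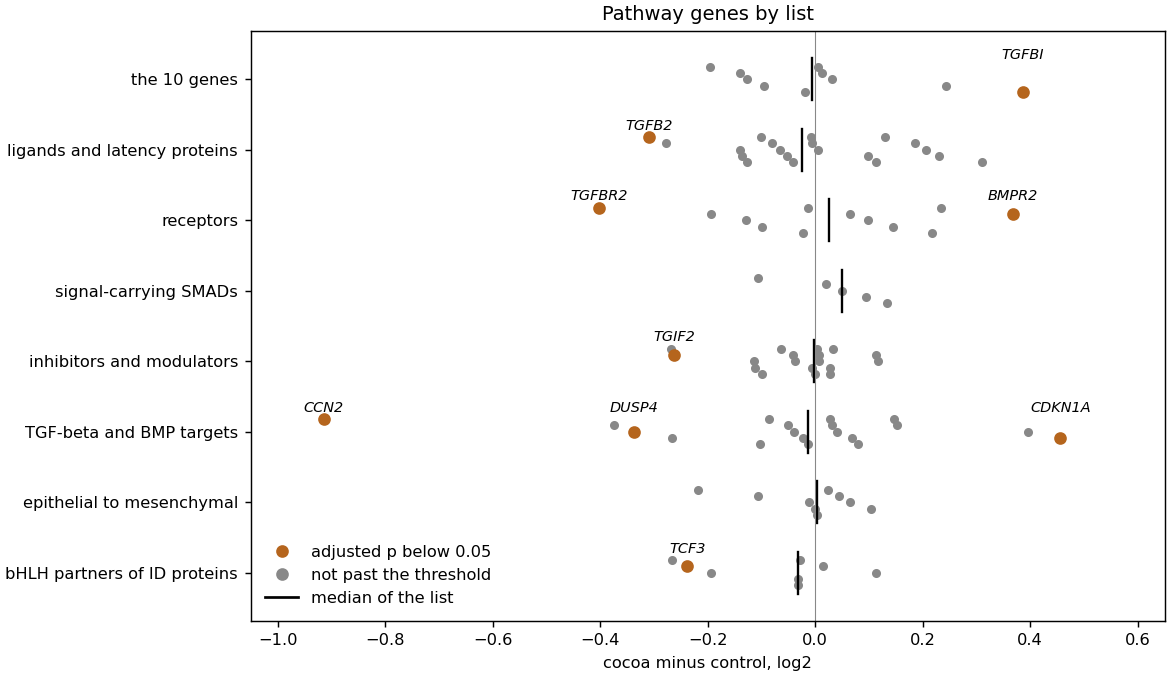
Log2 difference, cocoa minus control (horizontal axis), of the 10 genes and of the 91 other pathway genes by list; bars across a row mark the median of the list and named points passed the threshold. CCN2 lies at −0.91, the other changed genes lie between −0.40 and 0.46, and the medians of the lists lie between −0.032 and 0.05.

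In addition, 7 colon epithelium markers and 7 fibroblast markers were read as differences between the groups, which do not check the cell type. Of the epithelium markers CDH17, an intestinal cadherin, rose by 0.56 (SE 0.12, limma adjusted p = 0.0126) and 6 did not pass. That call was lost with the 18S (0.0997) and actin and GAPDH covariates (0.0606) and without control array 2 (0.0555). All 7 epithelium markers had a positive difference, 2 had an unadjusted limma p below 0.05, and in 3 the cocoa arrays lay above all controls. Over all genes 9184 of 19775 differences were positive, and in 15.4% of genes the cocoa arrays lay above all controls. The median of the 7 epithelium markers was 0.05, and 14.3% of them passed, against 13.5% of all genes. Of the fibroblast markers 2 had a positive and 5 a negative difference, 0 passed in limma and 0 had an unadjusted limma p below 0.05. Over all genes 27.1% had such a p. Their part in the results above was not tested.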

How the data were processed

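Total RNA of 6 HT29 cultures was read as biotin-labelled cRNA on Affymetrix U133 Plus 2.0 arrays, per the labels' protocols. The deposited log2 values come from RMA run by the authors, per the submitters' processing notes, a method that corrects background, normalises by quantiles and sums up probes. GeneSpring GX is named in the series text. For versions and filters the sources used here give nothing. The table itself names no log base. It was centred per probe set (largest absolute median 5e-07), so detection is unknown and neither an intensity trend nor a filter on dim probe sets was run. Of 54613 probe sets besides 62 controls, 41091 carried 1 symbol in the platform annotation, 1801 several and 11721 none.

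Probe sets with 1 symbol were averaged for each gene. Cocoa minus control was fitted with limma 3.58.1 (lmFit, eBayes) in R 4.3.3, once over all genes and once over all probe sets, with Benjamini-Hochberg adjustment over all of them; intervals are 95% from the moderated SE. Steps were tested on simulated data. Members, lists and tests were chosen with earlier results of these data known. The genes named are the members, up to 4 changed genes of each list and the 3 nearest to the member with the largest difference; CCN1 and genes shown as not changed were named after their values were seen. Replicate arrays differed by an SD of 0.22 to 0.264 among cocoa and 0.175 to 0.215 among control arrays, so none was a copy. Alternatives were other normalisation, array weights, a robust prior, the replicate number as a block, 2 covariates, fewer probe sets, the median of probe sets, and leaving out each array. Python 3.11.15, pandas 2.3.3 and matplotlib 3.10.9 made the tables and figures. No scanner files or scan dates were analysed here.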

Additional observations from a re-analysis of the deposited data

How the results depend on the processing

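Of 146 values of the 10 genes under the alternatives, 134 kept their sign and their side of the threshold, 2 lost a call and 10 changed sign without being called. The 2 were TGFBI under the 18S covariate (0.338) and under the 5′ to 3′ one (0.342), so that 0 of the 10 genes changed in either fit. Signs changed in 3 genes near 0. ID4 had −0.05 with the 18S covariate, −0.046 with the 5′ to 3′ covariate and −0.023 to 0.079 in the fits without 1 array. SMAD6 had −0.072 without probe sets of the suffixes _s_at and _x_at, −0.00017 with the 18S and −0.021 with the 5′ to 3′ covariate, and −0.029 to 0.034 without 1 array. TGFB1 ran from −0.152 to 0.07 without 1 array. DBP had −0.069 without these suffixes. ID1, ID2, ID3, BMP4, TGIF2, CDKN1A and MINPP1 have no value there.

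The number of changed genes was 1103 with the 18S covariate, 1411 with the 5′ to 3′ covariate and 1315 to 2881 without 1 array, 1315 without control array 2 and 1623 without control array 1. Of the genes changed with the covariates 787 and 919 were higher with cocoa. Changed probe sets numbered 2499 without the 2 suffixes, 1314 and 1808 with the covariates, and 1416 to 4602 without 1 array (2656 and 2616 without cocoa array 2 or 3, and 2052, 1416 and 2359 without control array 1, 2 or 3). Of the 22 probe sets of the 10 genes, 0 changed with either covariate or with the replicate block, and 0 to 1 without 1 array. Of the 91 pathway genes, 4 changed with the 18S and 5 with the 5′ to 3′ covariate. Without 1 array 2 to 10 of them changed (2 without control array 2, 3 without control array 1, 4 without cocoa array 3 or control array 3). Without the 2 suffixes 2 pathway genes changed, BMPR2 and CCN2, in a fit where 1813 of all genes changed. Not all of the 91 are in that fit. TGIF2 and CDKN1A, called with all probe sets, have no value there. The covariate fits leave fewer degrees of freedom. Why the counts differed between settings was not tested.

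The labels do not say whether arrays of the same replicate number belong together. Deviations of same-numbered arrays correlated at −0.12, −0.009 and −0.003 over genes, and at −0.21, −0.06 and −0.003 over probe sets. With 3 arrays per group these values cannot decide whether a pairing exists. With the replicate block 1947 genes and 2078 probe sets changed, and TGFBI kept its call in the fit of genes (adjusted p = 0.025, limma). Of the 91 pathway genes 8 changed with the block, without TGIF2 (limma adjusted p = 0.0628) and TCF3 (0.0769) and with CCN1 (0.0406) and JUNB. The number of arrays and the unknown signal over background limit what small differences can show.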

Other observations

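The cocoa arrays differed among themselves, with no 1 array nearest to the controls throughout. Cocoa array 2 was the cocoa array nearest to the control mean in 3 of the 10 genes (ID1, SMAD7 and TGFB1) and the farthest from it in 4 (ID4, SMAD3, SMAD6 and TGFBI). Over the 91 pathway genes it was the nearest in 32 and the farthest in 26, and over all genes the nearest in 29.5% and the farthest in 38.5%. CCN2 had −0.12 in cocoa array 2, against −0.68 and −0.92 in cocoa arrays 1 and 3, and so lay nearest to the controls there. TGFBR2 had −0.37 in cocoa array 2, against −0.055 and −0.24 in cocoa arrays 1 and 3, and lay farthest from them there, as did CDH17 with 0.66 against 0.33 and 0.15. The SD of the difference between cocoa array 2 and a control array was 0.325 to 0.333 over all probe sets, against 0.269 to 0.304 for cocoa arrays 1 and 3. Cocoa array 2 was the array with the highest 18S signal (3.31) and the lowest 5′ minus 3′ signal (−0.259), and the part of these signals in the values above was not tested.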
